A study of Homo sapiens with 10 samples.

Results

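The 10 genes described here drive or police mitosis and were followed through Rb chromatin profiles of ovarian cancer cells. They were the cyclin-dependent kinase CDK1 and its partners cyclin B1 and B2 (CCNB1, CCNB2), the Aurora kinases AURKA and AURKB, the polo-like kinase PLK1, the centrosomal kinase NEK2, and the spindle checkpoint kinases BUB1, BUB1B and TTK. The rule that picked these members uses gene names and no measured value, and they account for 10 of 19970 protein-coding genes on the 23 main chromosomes. A peak was assigned to a gene when it overlapped the stretch from 2000 bp before to 500 bp after any annotated transcript start. By this rule 54 of the 87112 Rb peaks in 8 libraries belonged to the 10 genes, with never more than 1 peak per gene and library.

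The study profiled Rb by CUT&RUN, in which an antibody on permeabilised cells directs a nuclease to cut out the DNA around the bound protein. The cells were Kuramochi and OVCAR-3, both long-established human lines of high-grade serous carcinoma of the ovary labelled as wild type, and they received 300 nM of the CDK2 inhibitor INX-315 or the solvent DMSO for 2 days. For either line there were 2 Rb libraries from each arm, and the DMSO arm also gave 1 library made with IgG2a as the control antibody. The treatment arms were run once, and each replicate was a separate biological sample according to the study's methods. In a bulk profile, fewer cells with Rb at a promoter and less Rb per cell cannot be told apart. The design asks whether the inhibitor changes the amount of Rb at these promoters.

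Rb is a pocket protein that binds E2F transcription factors and holds their target genes down until cyclin-dependent kinases phosphorylate it. Genes of DNA replication carry E2F sites and are switched on as cells enter S phase. Genes of mitosis peak later, and many of them are known to be repressed in resting cells through the CHR, a short element near the start site that is read by the DREAM complex, which contains the Rb relatives p107 or p130, and is activated later by complexes of B-MYB and FOXM1. CCAAT boxes bound by NF-Y often lie just upstream of the CHR. The kinases and cyclins described here are textbook members of that late group.

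The bases just before the start sites of 8 of these genes are shown first, because each of the 8 holds a CCAAT box, a CHR or both. Of the 10 genes, 8 matched the RefSeq promoter table used here (GRCh38.p14), and AURKA and TTK did not. Sequences are read from hg38, 5′ to 3′ on the strand of the gene, with CCAAT boxes (CCAAT, or ATTGG on the opposite strand) and the CHR (TTTGAA) in capitals. The stretches were trimmed so that they hold no annotated exon of a coding transcript, and the capitals show the boxes within them. They lie at chr5:69167025-69167134 on the plus strand for CCNB1, chr15:59105036-59105145 on the plus strand for CCNB2, chr16:23678759-23678868 on the plus strand for PLK1, chr17:8210585-8210694 on the minus strand for AURKB, chr1:211675631-211675740 on the minus strand for NEK2, chr2:110678064-110678173 on the minus strand for BUB1 and chr15:40160957-40161066 on the plus strand for BUB1B. For CDK1, where other transcripts start farther upstream, only the 30 bases that hold the CHR nearest the main start are given, at chr10:60778448-60778477 on the plus strand.
CCNB1: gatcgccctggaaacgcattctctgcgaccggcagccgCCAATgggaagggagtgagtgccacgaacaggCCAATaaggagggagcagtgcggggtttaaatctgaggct
CCNB2: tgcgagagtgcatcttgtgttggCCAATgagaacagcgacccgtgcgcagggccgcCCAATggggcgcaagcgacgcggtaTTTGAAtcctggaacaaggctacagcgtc
PLK1: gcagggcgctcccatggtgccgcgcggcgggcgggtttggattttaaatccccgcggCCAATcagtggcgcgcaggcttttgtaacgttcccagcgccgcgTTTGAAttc
AURKB: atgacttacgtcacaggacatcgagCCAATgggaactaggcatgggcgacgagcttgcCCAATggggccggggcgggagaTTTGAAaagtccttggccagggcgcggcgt
NEK2: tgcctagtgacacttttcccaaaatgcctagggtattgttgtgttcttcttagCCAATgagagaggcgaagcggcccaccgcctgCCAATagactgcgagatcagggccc
BUB1: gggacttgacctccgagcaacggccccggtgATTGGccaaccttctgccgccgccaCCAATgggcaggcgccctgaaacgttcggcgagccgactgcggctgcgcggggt
BUB1B: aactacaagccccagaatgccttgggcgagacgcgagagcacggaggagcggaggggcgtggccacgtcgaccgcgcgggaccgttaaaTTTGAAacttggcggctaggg
CDK1: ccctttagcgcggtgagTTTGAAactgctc

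In the 150 bases before the start site, a window chosen after the peaks had been examined, 7 of these 8 genes held a CCAAT box on either strand, against 27.2% of 15080 protein-coding genes. The CHR was found in 5 of the 8, CDK1, CCNB2, PLK1, AURKB and BUB1B, against 5.14% of all genes. Both together stood in 4 of the 8 and in 1.76% of all genes. An E2F site, searched as TTTCCCGC, TTTCGCGC, TTTGCCGC or TTTGGCGC, was present in 1 of the 8, CDK1, at 128 bp before the start, and in 2.47% of all genes. The CHR variant TTCGAA was present in 0 of the 8 and in 0.570% of all genes, and the comparator AAGTTT, which is the CHR letters reversed, in 1 of the 8 (BUB1B, where it overlaps the CHR) and in 4.62% of all genes. Related lists of genes were searched in the same window. The mitotic entry and exit partners held a CCAAT box in 12 and a CHR in 7 of 17 matched genes, and the checkpoint and passenger partners in 13 and 8 of 17, with an E2F site in 1 of 17 each. The G1/S genes, a list of replication and S phase genes, held a CCAAT box in 9 of 17, a CHR in 0 and an E2F site in 9. Of 16 matched relatives of the member families, 1 held a CCAAT box and 0 a CHR or an E2F site.

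The CHR lay at varied distances from the start, whereas the same-strand CCAAT pairs had similar spacings. Counted from its first base, the CHR began 29 bp before the start in both CCNB2 and PLK1, 39 bp before it in AURKB, 23 bp before it in BUB1B and 13 bp before it in CDK1, which has a further copy at −69 bp. Same-strand CCAAT boxes were 32 bp apart in CCNB1, NEK2 and CDK1 and 33 bp apart in AURKB and between each of the 3 boxes of CCNB2. PLK1, BUB1 and BUB1B held no same-strand pair, and AURKB has a further box on the opposite strand at −130 bp. A pair spaced by 31 to 34 bp on the same strand, a range set after these spacings were seen, occurred in 1.07% of all genes. It occurred in 5 of the 8 members, from which the range was drawn, and in 2 of 17 entry and exit partners. The matched genes of the other lists held 0. These are matches of letters and were not tested as binding sites.

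**Figure D1:**
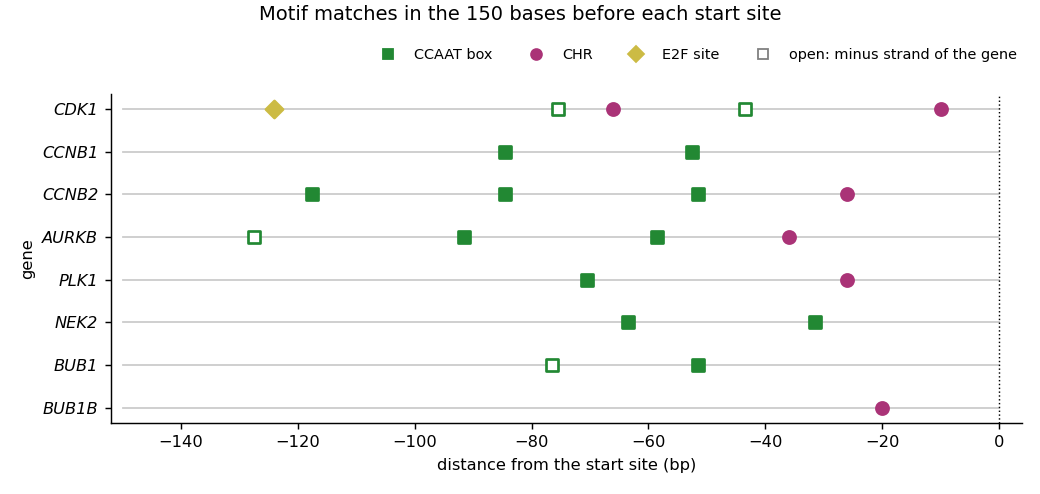
Position of motif matches in the 150 bases before the start site of 8 genes (horizontal axis, bp from the start site). Squares mark CCAAT boxes, circles the CHR and the diamond an E2F site, with open symbols for matches on the minus strand of the gene. CCAAT boxes lie in 7 of 8 genes and the CHR in 5 of 8, the CHR nearest the start in each.

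The strength of each peak is given as its summit height, the number of sequenced fragments covering the summit divided by the genome-wide mean number of fragments per base in that library. The fragments were recovered from the fold enrichment and p-value in the peak lists. The genome-wide mean ran from 0.216 to 0.501 fragments per base, so a summit of these genes rested on 5 to 67 fragments, and the 95% Poisson intervals in the plot of heights cover counting error only. Where a library had no peak, its summit was taken to lie no higher than the lowest height the caller could have listed at that promoter, 10.0 to 22.5 in the libraries concerned, and the fold is then written as at least that value. The lists held 5221 to 8794 peaks with DMSO and 13031 to 17281 with INX-315, and the 2 IgG2a lists held 257 and 195 peaks, none of them at the 10 promoters. A promoter peak in the IgG2a lists was found for 0.015% of protein-coding genes in OVCAR-3 and 0.00501% in Kuramochi.

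Under DMSO a minority of these promoters were bound, as was a minority of all protein-coding genes. In OVCAR-3, CDK1, AURKA, NEK2 and TTK had a peak in both replicates, which is 4 of 10, beside 26.8% of all protein-coding genes. In Kuramochi only CDK1 and AURKA did, 2 of 10 beside 24.8%. The NEK2 peak in OVCAR-3 DMSO replicate 2 was weak, with 8 fragments and rank 7842 of 7984. At a q-value of at most 0.001 NEK2 was not bound under DMSO, which left 3 members in OVCAR-3, beside 23.3% of all genes. After INX-315 the bound promoters numbered 9 of 10 in OVCAR-3, all but BUB1B, beside 55.5% of all genes, and 8 of 10 in Kuramochi, all but PLK1 and BUB1, beside 53.2%. No member lost a peak in either line. A promoter counted as gained if it had a peak in both INX-315 libraries and none with DMSO. In OVCAR-3, 3 of the 4 members without DMSO peaks were gained (AURKB, BUB1 and PLK1), beside 27.1% of all such genes, and in Kuramochi 3 of 5 (AURKB, BUB1B and CCNB2), beside 23.5%. AURKB, the kinase of the chromosomal passenger complex, was the member gained in both lines, beside 5.56% of all genes.

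The heights of the replicates were then compared between treatments. Both INX-315 heights lay above both DMSO heights for 9 of 10 members in OVCAR-3 and 8 of 10 in Kuramochi, and for 7 of 10 in both lines (CDK1, CCNB1, CCNB2, AURKA, AURKB, NEK2 and TTK). Over all protein-coding genes the shares were 55.1%, 51.8% and 46.9%. The members' shares are thus above the background, which counts silent promoters without any peak. The list was not tested against it. The call needs a peak in both INX-315 libraries, and the 9 and 8 members were those bound under INX-315. Over all genes in OVCAR-3, 11079 were bound under INX-315 and 10996 had separate heights. In Kuramochi these numbers were 10622 and 10346. The count of separate heights thus nearly repeats that of bound promoters. The Kuramochi calls depended on which DMSO library was used. Without its replicate 1, the shortest list, 5 members were bound under DMSO, beside 39% of all genes. Without its replicate 2, 6 members were gained, beside 27% of all genes, where both replicates gave 3 members and 14% of all genes. In OVCAR-3, 5 members were gained without DMSO replicate 2, beside 25.8% of all genes, against 3 members and 16.2% with both. The background thus moved in the same direction as the members.

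These counts depended on the length of the lists. When every Rb list of a line was cut by p-value to the number of peaks in its shortest list, INX-315 left 4 members bound in OVCAR-3 (AURKA, CCNB1, NEK2 and TTK) and 3 in Kuramochi (AURKA, CDK1 and NEK2), beside 29% and 25% of all genes. CCNB1 in OVCAR-3 was then the only member gained in either line, beside 2.33% of all genes in OVCAR-3 and 2.03% in Kuramochi. Both INX-315 heights lay above both DMSO heights for those same 4 and 3 members, beside 29% and 24.8% of all genes.

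**Figure D2:**
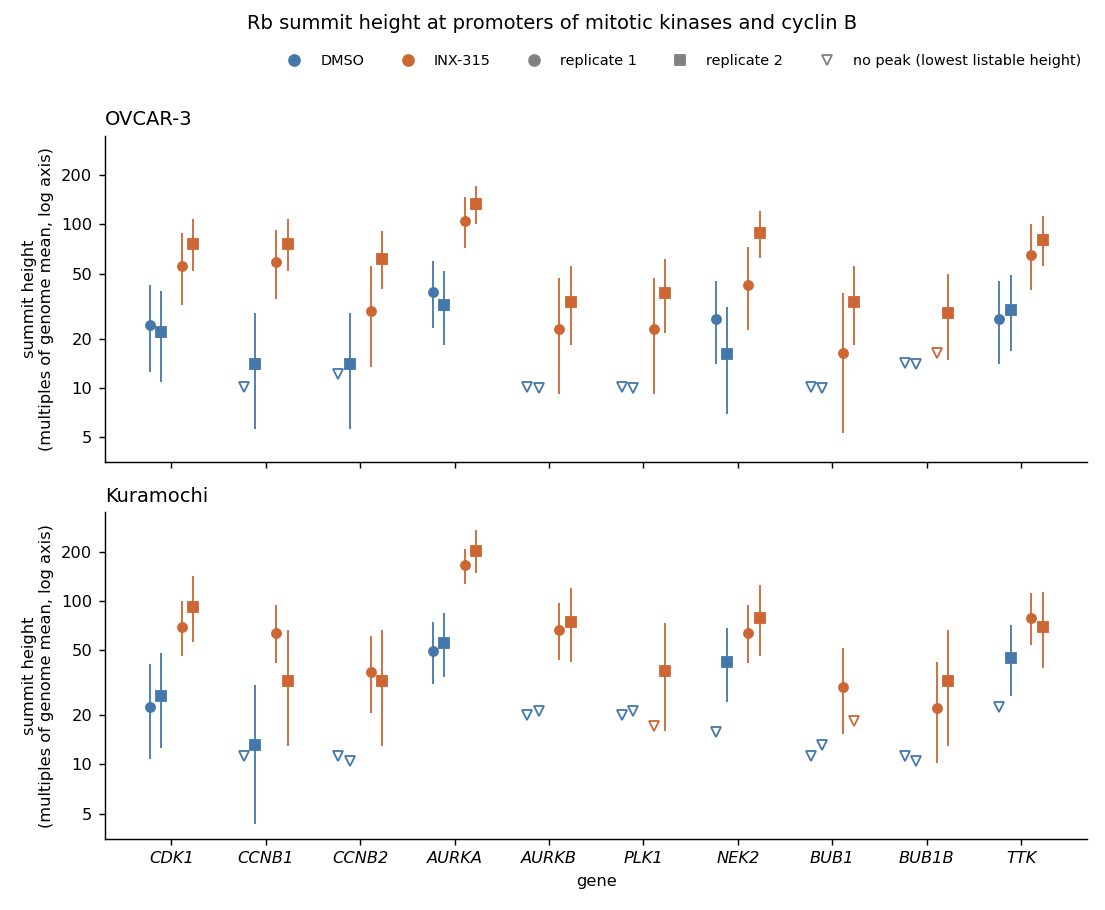
Rb summit height (vertical log axis, multiples of the genome-wide mean) for each gene and library, with OVCAR-3 above and Kuramochi below. Circles and squares are replicates 1 and 2 with 95% Poisson intervals of the fragment count, and open triangles mark libraries without a peak at the lowest height that could have been listed. AURKA is the highest gene in all 4 INX-315 libraries, at 104.4 to 203.8, and AURKB, PLK1, BUB1 and BUB1B have no DMSO peak.

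CDK1, the kinase that triggers mitosis, was bound in all 8 libraries. In OVCAR-3 its summit heights were 24.3 and 21.9 with DMSO and 55.5 and 76.1 with INX-315. In Kuramochi they were 22.5 and 26.3 with DMSO against 69.2 and 92.6 with INX-315. The groups did not overlap in either line, and the means were 23.1 ± 1.6 against 65.8 ± 14.6 in OVCAR-3 and 24.4 ± 2.7 against 80.9 ± 16.6 in Kuramochi (SD, n = 2). The folds were 2.82 and 3.29. With limma across the 3762 genes that had a peak in all 8 libraries, the log2 difference was 1.49 ± 0.43 (SE) in OVCAR-3, with an adjusted p of 0.000651, and 1.72 ± 0.43 in Kuramochi, with an adjusted p of 0.000192. The peak also widened, from 393 and 348 bp to 1043 and 1019 bp in OVCAR-3 and from 236 and 581 bp to 1097 and 645 bp in Kuramochi. The summits fell from 80 bp before to 250 bp after the start. In 4 of 8 libraries they lay upstream of it, among or beside the CHR and CCAAT matches. Both summits of treated OVCAR-3 cells lay downstream of those matches, at 250 and 90 bp after the start. Within 100 bp of its strongest summit on either side, CDK1 held 3 CHR matches, 2 CCAAT boxes and 1 E2F site.

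The cyclins that activate CDK1 gave weaker DMSO signals. CCNB1 had no peak in DMSO replicate 1 of either line, and its height in replicate 2 was 14.0 in OVCAR-3 and 13.2 in Kuramochi, resting on 7 and 5 fragments. After INX-315 its heights were 58.7 and 76.1 in OVCAR-3 and 64.2 and 32.4 in Kuramochi. The INX-315 values were all above the DMSO values, with a rise of at least 5.63-fold in OVCAR-3 and 3.75-fold in Kuramochi. In Kuramochi the INX-315 replicates themselves differed, with 26 and 7 fragments at the summit. The single Kuramochi DMSO summit lay at −254 bp from the start, nearer to the start of an antisense lncRNA (ENSG00000248664) than to that of CCNB1, whereas the INX-315 summits lay within 96 bp of the CCNB1 start.

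CCNB2 had a DMSO peak only in OVCAR-3 replicate 2, at 14.0. The INX-315 heights were 29.4 and 61.8 in OVCAR-3 and 37.0 and 32.4 in Kuramochi, at least 3.27-fold and 3.19-fold above DMSO. The INX-315 groups lay above every DMSO value or limit, although the OVCAR-3 replicates were 45.6 ± 23 (SD, n = 2). Its summits lay 120 to 310 bp after the start, all downstream of the CCAAT boxes and CHR shown above, in exon 1 or its following intron.

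AURKA, which matures centrosomes and builds the spindle, carried the highest summit of the 10 genes in each of the 4 INX-315 libraries and in each of the 4 DMSO libraries. In OVCAR-3 the heights were 38.4 and 31.9 with DMSO and 104.4 and 133.2 with INX-315. The Kuramochi libraries gave 49.4 and 55.3 with DMSO against 165.5 and 203.8 with INX-315. The groups were far apart, at 3.37-fold and 3.51-fold. The limma log2 differences were 1.75 ± 0.43 (SE, adjusted p = 9.63e-05) in OVCAR-3 and 1.81 ± 0.43 (adjusted p = 0.000112) in Kuramochi. The peak stood in the top 6.54 to 12.4% of the INX-315 lists by p-value.

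This peak is shared with a neighbour. CSTF1, a cleavage stimulation factor subunit, starts 156 bp or more upstream of AURKA in the opposite direction. In all 8 libraries the summit, 125 to 359 bp before the main AURKA start, was nearer to a CSTF1 start than to that AURKA start, and in 7 of 8 it was nearer to CSTF1 than to any annotated AURKA start. The height therefore cannot be assigned to AURKA alone. In Kuramochi the local background the caller used there was 3.73 to 5.47 times the genome-wide mean, against 1.80 to 2.13 times in OVCAR-3. With the caller's own fold enrichment, which divides by that background, the log2 difference in Kuramochi was 1.83.

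AURKB differed from AURKA in having no DMSO peak in either line. The INX-315 heights were 22.8 and 33.3 in OVCAR-3 and 66.7 and 74.1 in Kuramochi. They exceeded the lowest height that could have been listed under DMSO by at least 2.75-fold and 3.41-fold. The Kuramochi values were above the OVCAR-3 values under INX-315, but this difference between lines was not tested. The local background at AURKB was 3.73 to 4.99 times the genome-wide mean in Kuramochi and 1.00 to 1.13 times in OVCAR-3. The caller's fold enrichment, which divides by that background, was 9.27 and 9.41 in Kuramochi and 6.12 and 10.2 in OVCAR-3. The lines thus overlapped on that scale, and the part of the background in the difference of heights was not tested. All 4 summits lay 51 to 216 bp after the start, inside an intron of the main transcript.

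PLK1, which promotes entry into mitosis and spindle assembly, had no peak under DMSO. In OVCAR-3 it reached 22.8 and 38.0 under INX-315, at least 2.94-fold over the limit. In Kuramochi it was listed in INX-315 replicate 2 alone, at 37.1 on 8 fragments. The OVCAR-3 replicate 2 peak was 1457 bp wide, the widest of all 54. NEK2, which separates centrosomes, behaved differently and was bound in 7 of 8 libraries. Its heights in OVCAR-3 were 26.3 and 16.0 with DMSO and 42.4 and 88.0 with INX-315, and in Kuramochi it had no peak in DMSO replicate 1, 42.1 in replicate 2, and 64.2 and 78.7 under INX-315. The groups did not overlap, but the replicates in OVCAR-3 were as far apart as 65.2 ± 32.2 (SD, n = 2). The rise was 2.98-fold in OVCAR-3, where the DMSO replicate 2 summit rested on 8 fragments. In Kuramochi it was at least 2.76-fold, and that bound rests on the missing DMSO replicate 1. In 6 of its 7 libraries the summit was nearer to NEK2-DT, a lncRNA that starts 128 bp upstream in the opposite direction, than to NEK2.

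The spindle checkpoint kinases split. TTK (MPS1), which starts checkpoint signalling at kinetochores, was bound in 7 of 8 libraries. Its heights in OVCAR-3 were 26.3 and 29.9 with DMSO and 65.3 and 80.8 with INX-315. In Kuramochi it was missing in DMSO replicate 1 and at 44.8 in replicate 2, with 79.0 and 69.5 under INX-315. The groups did not overlap, at 2.59-fold in OVCAR-3 and at least 2.34-fold in Kuramochi, a bound that again rests on DMSO replicate 1. The local background at TTK in Kuramochi was 4.38 to 6.22 times the genome-wide mean, so a summit of up to 22.5 could have gone unlisted in the missing library. Its summits all lay 216 to 345 bp before the main start and downstream of a further annotated TTK start.

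BUB1 and BUB1B (BUBR1), the other checkpoint kinases, had low summits throughout. Neither had a peak in any DMSO library. BUB1 was listed at 16.3 and 33.3 in OVCAR-3 under INX-315 and at 29.6 in Kuramochi replicate 1 only. BUB1B was listed at 28.5 in OVCAR-3 replicate 2 only and at 22.2 and 32.4 in Kuramochi. Where both INX-315 libraries had a peak, the rise was at least 2.32-fold for BUB1 in OVCAR-3 and 2.47-fold for BUB1B in Kuramochi. These summits rested on 5 to 14 fragments. In the DMSO libraries a peak at these promoters could have been listed from a height of 10.0 to 14.1, below every listed height of both genes. The 3 BUB1B summits lay 9 to 61 bp after the start, in the 5′ UTR.

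The order of the mean heights under INX-315 differed between the lines, taking the genes with a peak in both libraries. In OVCAR-3 it was AURKA (118.8), TTK (73.0), CCNB1 (67.4), CDK1 (65.8), NEK2 (65.2), CCNB2 (45.6), PLK1 (30.4), AURKB (28.1) and BUB1 (24.8). In Kuramochi it was AURKA (184.6), CDK1 (80.9), TTK (74.3), NEK2 (71.5), AURKB (70.4), CCNB1 (48.3), CCNB2 (34.7) and BUB1B (27.3). AURKA stood apart from the next gene in both lines, and in Kuramochi the lowest AURKB height of 66.7 exceeded the highest CCNB1 height of 64.2. The heights of all other neighbours overlapped or, for CCNB2 and BUB1B in Kuramochi, met at 32.4. This order holds for heights, which do not divide by the local background. Under INX-315 in Kuramochi that background was 3.73 to 4.99 times the genome-wide mean at AURKB and 1.00 to 1.24 times at CCNB1. The caller's fold enrichment there was 9.27 and 9.41 for AURKB and 19.2 and 6.31 for CCNB1, so these genes overlapped on that scale. For TTK it was 10.9 and 6.83.

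**Figure D3:**
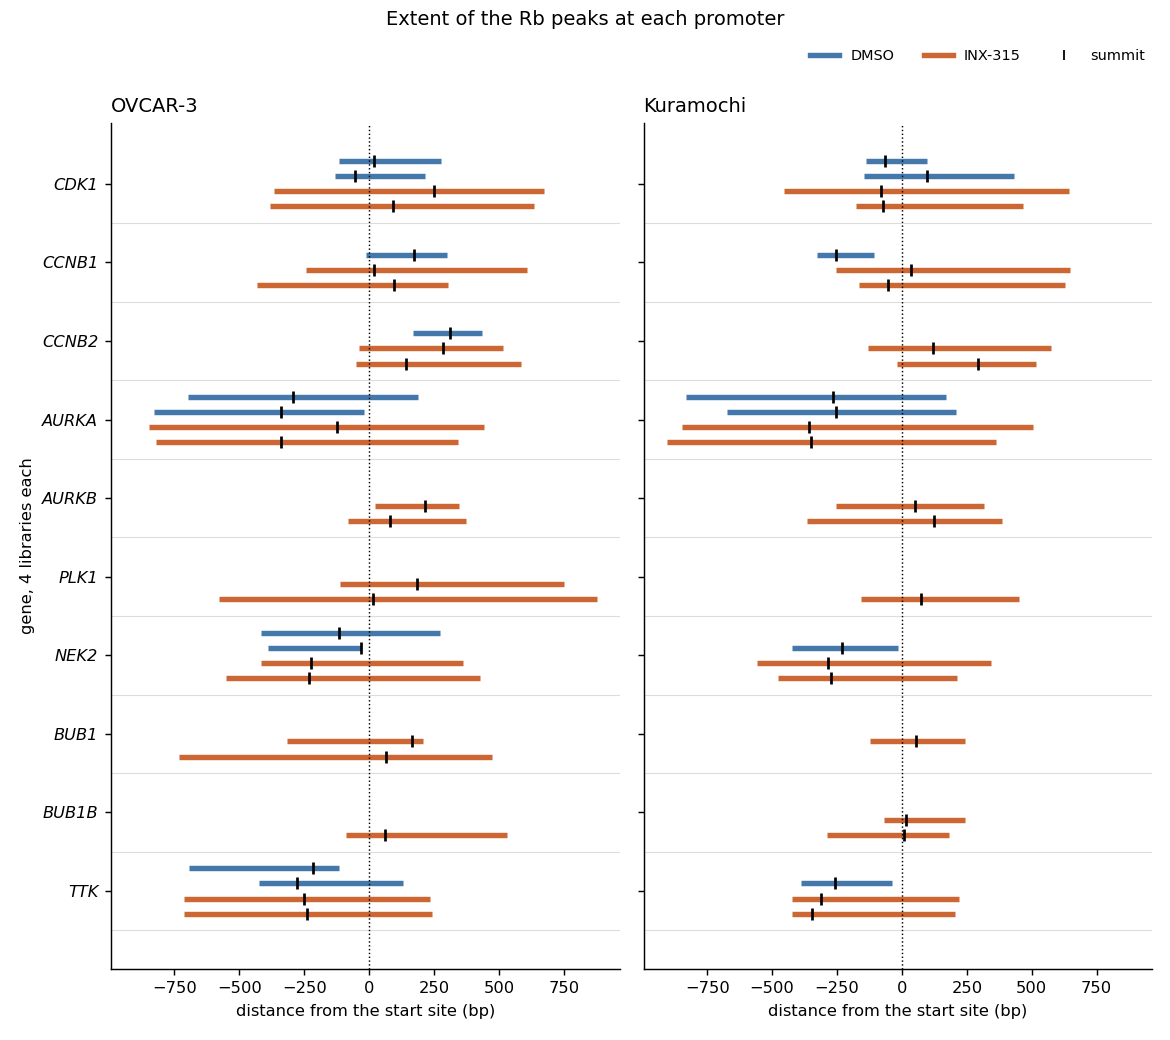
Extent of each Rb peak relative to the main start site (horizontal axis, bp), with 4 libraries per gene in the order DMSO 1 and 2, INX-315 1 and 2, for both lines. Bars span the peak, black ticks mark summits, and a missing bar is a library without a peak. Summits of AURKA, NEK2 and TTK lie before the start and those of CCNB2, PLK1, AURKB, BUB1 and BUB1B after it.

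Across the 54 peaks no summit was more than 359 bp from the main start site, with 28 before it and 26 after it, and 46 of the peaks covered the start itself. The median width of the member peaks was 353.5 to 635.5 bp in the DMSO libraries and 645.0 to 968.5 bp in the INX-315 libraries, beside medians of 482.0 to 559.0 bp and 619.0 to 775.0 bp over all peaks. Within 100 bp of the strongest summit on either side, 3 of the 8 matched members held a CCAAT box (19.9% of 10913 genes with a peak), 3 a CHR (3.63%) and 1 an E2F site (4.37%). The TTCGAA variant was in 1 of 8 (1.07%) and the comparator in 1 of 8 (3.88%). The summits of several genes thus lay beyond the boxes printed above.

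The rise at these promoters has to be read against that of all promoters, which was as large. Among the 5333 protein-coding genes with a peak in all 4 OVCAR-3 libraries the median log2 difference in height was 1.78, with quartiles at 1.48 and 2.07, and among the 4952 such genes in Kuramochi it was 1.5, with quartiles at 1.2 and 1.79. The members in these sets were at 1.37 (TTK), 1.49 (CDK1), 1.58 (NEK2) and 1.75 (AURKA) in OVCAR-3, which is above 17.6%, 25.8%, 32.4% and 47.6% of the genes. In Kuramochi CDK1 and AURKA, at 1.72 and 1.81, were above 69.2% and 76.4%. The 4 measurable members of OVCAR-3 were thus all below the median of that line and the 2 of Kuramochi above it. Without Kuramochi DMSO replicate 1, NEK2 and TTK could be measured in that line too. Their log2 differences were 0.75 (limma, adjusted p = 0.158) and 0.73 (adjusted p = 0.170), both below the median of 1.22 over the 4713 genes of that fit, whereas CDK1 and AURKA remained above it, at 1.60 and 1.73.

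**Figure D4:**
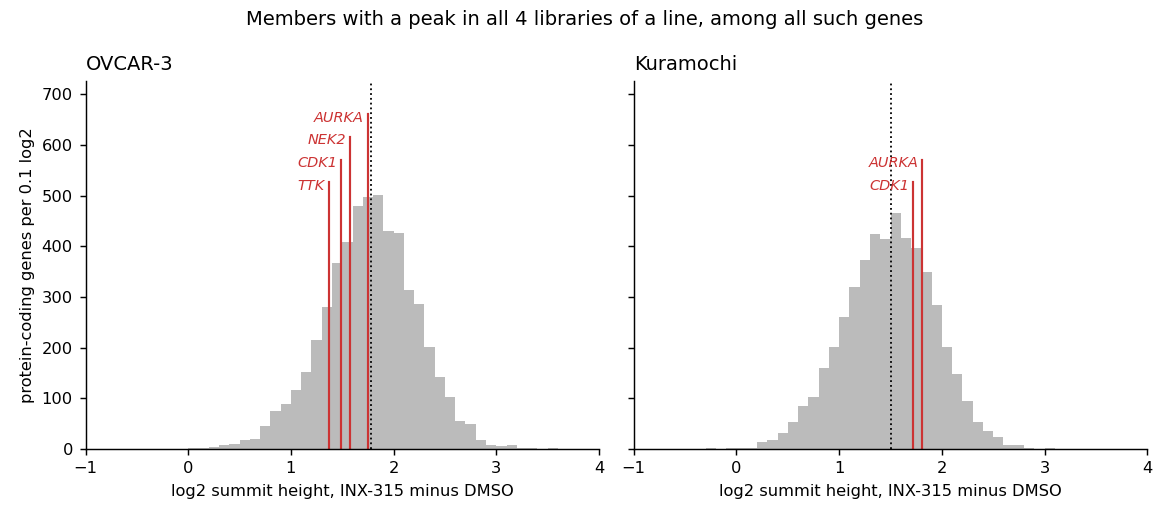
Distribution of the log2 difference in summit height, INX-315 minus DMSO, over protein-coding genes with a peak in all 4 libraries of a line (grey bars, number of genes per 0.1 log2), with the median as a dotted line. Red lines mark the members measured in all 4 libraries. The 4 members in OVCAR-3 lie at 1.37 to 1.75, below the median of 1.78, and the 2 in Kuramochi at 1.72 and 1.81, above the median of 1.5.

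CCNB1 in OVCAR-3, with a peak in only 1 DMSO library, could not enter that set. Its log2 difference was at least 2.49, the largest such bound among the members in OVCAR-3. The other bounds there were at least 1.71 (CCNB2), 1.55 (PLK1), 1.46 (AURKB) and 1.22 (BUB1). The set leaves out genes with a weak or missing DMSO peak, so its quartiles are no yardstick for these bounds, and none was tested against it.

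The members that could be tested were called together with nearly all genes. In the limma fit over both lines 97.8% of the 3762 genes in OVCAR-3 and 93.2% in Kuramochi were called higher, as were both members it could test, CDK1 and AURKA. The treatment effect averaged over the lines was 1.61 for CDK1 and 1.78 for AURKA on the log2 scale, and an exact permutation test of it, two-sided and exchanging treatments within a line, gave p = 0.0556 for each, the smallest that its 36 arrangements allow. With OVCAR-3 alone 96.8% of 5333 genes were called higher, and so were NEK2 (log2 difference 1.58 ± 0.46, adjusted p = 0.000946) and TTK (1.37 ± 0.46, adjusted p = 0.00371). With Kuramochi alone the share was 92.1% of 4952 genes. When each library was centred on its median, the log2 differences were −0.35 ± 0.28 for CDK1 and −0.09 ± 0.24 for AURKA in OVCAR-3, with adjusted p-values of 0.496 and 0.860. In Kuramochi they were 0.20 ± 0.28 and 0.30 ± 0.24, with adjusted p-values of 0.716 and 0.497. After centring, 1.99% of genes in OVCAR-3 and 2.13% in Kuramochi were called higher and 6.03% and 3.38% lower, and neither member was among them, nor had an unadjusted p below 0.05. The height scale divides by depth and used no spike-in, so a rise in Rb at nearly all promoters and a better enrichment of the INX-315 libraries cannot be told apart here.

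No difference between the lines was called at the members tested. The response in OVCAR-3 minus that in Kuramochi was −0.22 ± 0.61 on the log2 scale for CDK1 (adjusted p = 0.998) and −0.06 ± 0.61 for AURKA (adjusted p = 0.998). Over all 3762 genes the share called in this limma contrast was 0%, with 99 genes at an unadjusted p below 0.05.

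Genes that work with these kinases were counted in the same way. Of 24 partners in mitotic entry and exit, 16 in OVCAR-3 and 15 in Kuramochi had a peak in both DMSO libraries, and 23 in each line after INX-315. Over all protein-coding genes the shares were 26.8% and 24.8% with DMSO and 55.5% and 53.2% with INX-315. Both INX-315 heights lay above both DMSO heights for 22 of 24 in each line, beside 55.1% and 51.8% of all genes. Gained in both lines were HASPIN, the histone H3 kinase that guides the passenger complex, and PTTG1, the securin that restrains separase. Over all protein-coding genes the share gained in both lines was 5.56%. PTTG1 had no DMSO peak and reached 81.6 and 137.9 in OVCAR-3 and 69.2 and 92.6 in Kuramochi. CDC25A, the phosphatase that activates CDK2 and CDK1, was the highest ranked of the list, at 107.1 and 89.7 with DMSO and 202.3 and 306.7 with INX-315 in OVCAR-3.

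Of 20 partners of the checkpoint and the passenger complex, 10 and 12 had a peak in both DMSO libraries, beside 26.8% and 24.8% of all genes. In both INX-315 libraries 19 in each line had one, beside 55.5% and 53.2%. Both INX-315 heights lay above both DMSO heights for 19 in each line, beside 55.1% and 51.8%. CENPE, the kinetochore motor, was gained in both, beside 5.56% of all genes. MIS12, a subunit of the outer kinetochore platform, ranked highest of this list, at 28.3 and 43.9 with DMSO against 117.5 and 187.8 with INX-315 in OVCAR-3 and at 112.3 and 234.4 against 323.5 and 426.1 in Kuramochi. CDCA8 (borealin), a partner of AURKB in the passenger complex, was bound in all 8 libraries, at 24.3 and 33.9 with DMSO and 114.2 and 164.1 with INX-315 in OVCAR-3 and at 56.2 and 71.1 against 185.2 and 226.9 in Kuramochi. Of 18 relatives of the member families, 8 and 7 were bound with DMSO, beside 26.8% and 24.8% of all genes. With INX-315 15 and 14 were bound, beside 55.5% and 53.2%. CDK6 and NEK3 were gained in both lines, again beside 5.56% of all genes. The highest ranked were NEK7, at 66.7 and 93.7 with DMSO against 238.2 and 256.8 with INX-315 in OVCAR-3, and PLK4, the kinase of centriole duplication, at 54.6 and 69.8 against 234.9 and 209.2. By contrast, AURKC and the germline cyclin CCNB3, named after their values were seen, had no peak in any library.

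The 20 G1/S genes were nearly all bound before treatment. Under DMSO 20 of 20 were bound in OVCAR-3 and 19 of 20 in Kuramochi, beside 26.8% and 24.8% of all genes. Under INX-315 20 of 20 were bound in both lines, beside 55.5% and 53.2%. Both INX-315 heights lay above both DMSO heights for 18 in each line, beside 55.1% and 51.8%. CCNE2 (cyclin E2), the highest ranked, was at 127.3 and 147.6 with DMSO and at 303.4 and 409.0 with INX-315 in OVCAR-3. Of the 19 tested in the limma fit, 14 in OVCAR-3 and 15 in Kuramochi were called higher, beside 97.8% and 93.2% of all genes tested. The median log2 differences of the list were 1.28 and 0.99. After centring on the library median, 10 of 19 were called lower in OVCAR-3 and 4 of 19 in Kuramochi. Over all genes tested the shares called lower were 6.03% and 3.38%. None of the 19 was called higher, and their medians were −0.57 and −0.53. The 13 entry and exit partners tested had centred medians of −0.22 and −0.15, with 1 called lower in each line, the 9 checkpoint and passenger partners 0.23 and 0.08 with none called, and the 7 relatives 0.00 and 0.03 with none called. The differences between lists were not tested.

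**Figure D5:**
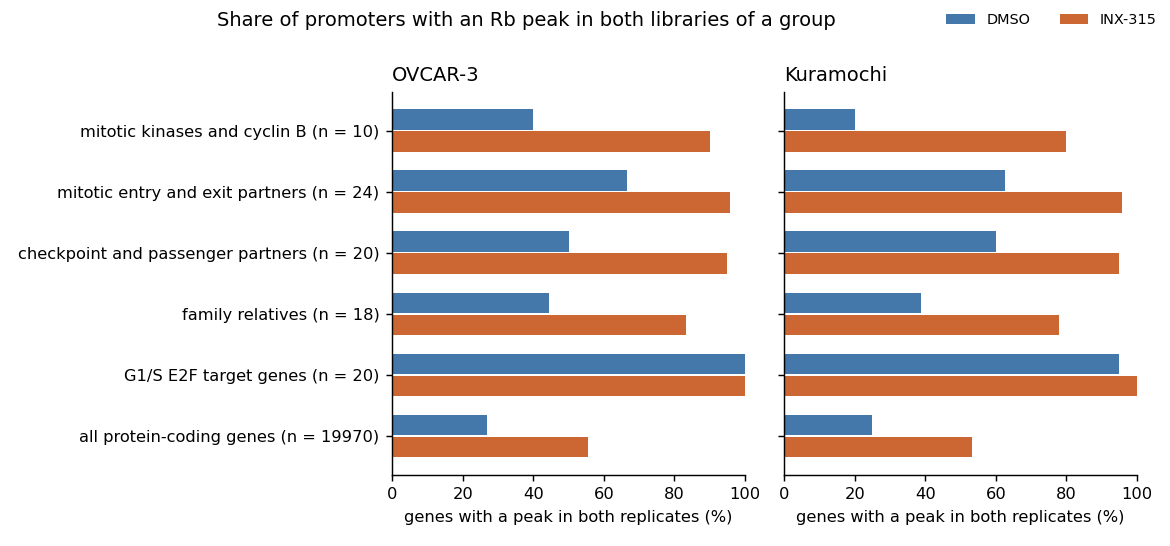
Share of genes with an Rb peak in both libraries of a group (horizontal axis, %), for the 10 mitotic kinases and cyclins B, 4 lists of related genes and all protein-coding genes, under DMSO and INX-315 in each line. The mitotic kinases and cyclins B go from 40% to 90% in OVCAR-3 and from 20% to 80% in Kuramochi, and the G1/S genes start at 100% and 95%.

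The genes whose 8 heights were most like the mean of CDK1 and AURKA were, outside the lists, DEGS1 at a root mean square log2 difference of 0.15, ACACA and TADA2A at 0.17, and GNG5 and SPATA1 at 0.18, against a median of 0.66 over 3712 genes. ACACA and TADA2A had identical heights in all 8 libraries, as had GNG5 and SPATA1, each pair sharing its promoter peak.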

How the data were processed

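Rb and IgG2a CUT&RUN libraries were prepared with a commercial kit and sequenced in pairs. According to the study's methods, the authors trimmed reads with BBDuk and aligned them to hg38 with Bowtie2 (2.3.4.1). They removed mitochondrial and blacklisted reads and kept duplicates. Narrow peaks were called per library with MACS2 (2.2.7.1) against the IgG2a library of the same line at a q-value of 0.05. DiffBind and deepTools are also named in the submitters' processing notes, and no output of theirs was used. The deposited peak lists give a score, a fold enrichment (ratio of fragments to local background, each plus 1), a −log10 p-value and a −log10 q-value for each summit. The authors applied no spike-in scaling to these values. In all, 23 chromosomes were named alike in the lists and the reference, and 0 of them had a peak past its end.

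From the fold enrichment and −log10 p, the whole number of fragments at each summit and its background were recovered to a relative tolerance of 3e-05, with 1 solution for at least 98.63% of the peaks in each Rb library. Heights are fragments over the lowest background of the library. Intervals are exact 95% Poisson intervals and cover counting error only. Missing peaks were placed at the lowest height that could have been listed, given the background at that promoter in the other libraries of the line. Promoters came from GENCODE release 44 (252835 transcripts), with the MANE transcript as the main start. Log2 heights of genes with a peak in all 8 Rb libraries were compared with limma 3.58.1 (trend) in R 4.3.3, with Benjamini-Hochberg adjustment over all genes tested at 0.05. The recovery of fragments and the limma comparison were also run on simulated data, with outcomes not given here. The limma simulation changed a minority of genes and held no shift shared by a library. It therefore cannot speak to a rise over nearly all genes. With 2 libraries per group, limma moderated the spread of each gene towards a trend over all genes tested. CDK1 and AURKA thus both had an SE of 0.43 in each line. The limma p-values concern these libraries only and do not measure the replicate spread of a single gene. Python 3.11.15, numpy 2.4.6, pandas 2.3.3, scipy 1.17.1 and matplotlib 3.10.9 were used.

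The 10 genes and the 4 lists of related genes were chosen with earlier results of these data known. All 10 were named, and of each list at most 4 genes, those gained in both lines and then those with the highest mean rank of their heights, except 2 relatives without a peak that were named after their values were seen. Motifs were searched on both strands by exact match. The alternatives were a stricter q-value of 0.001, equal list lengths, summits inside the promoter, a promoter from 1000 bp before the start, a peak in at least 1 replicate, centring on the library median, the listed fold enrichment, each line alone, a replicate block, an exact permutation test and leaving out each library. The lists hold no expression values, so the identity of the lines was not checked.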

Additional observations from a re-analysis of the deposited data

How the results depend on the processing

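Of 206 values recomputed under other choices, 172 stayed within the limits set for a change (the same direction and side of the threshold, a count within 1.5 times, or a median within 1 SD of the replicates), 24 moved, 4 lost their call and 6 reversed. Equal list lengths left 4 members bound under INX-315 in OVCAR-3 and 3 in Kuramochi, 1 and 0 gained, and 4 and 3 with separate heights. The lists were cut by p-value, so a member stayed bound only if its peaks ranked high enough to be kept. The cause of the lower counts was not tested. With a peak in at least 1 replicate counting as bound, Kuramochi had 5 members bound under DMSO and 5 gained.

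Centring each library on its median left 0 members called in both lines, with median log2 differences of −0.22 in OVCAR-3 and 0.25 in Kuramochi, and −0.28 and 0.22 with each line fitted alone, a choice added after the data were seen. In OVCAR-3 AURKA went to −0.09 and −0.06 and CDK1 to −0.35 and −0.32. Over all 3762 genes the limma calls went from 3678 higher to 75 higher and 227 lower in OVCAR-3, and from 3508 higher to 80 higher and 127 lower in Kuramochi. With the listed fold enrichment the members' medians were 1.34 and 1.55 and Kuramochi had 2223 genes called higher, and the cause was not tested. OVCAR-3 fitted alone called 4 members, since NEK2 and TTK could then enter. The exact permutation called 0 members in both lines, its smallest p of 0.0556 lying above the threshold.

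Leaving out 1 library at a time gave 4 to 6 members bound under DMSO in OVCAR-3 and 2 to 5 in Kuramochi, 9 to 10 and 8 to 9 bound under INX-315, 3 to 5 and 3 to 6 gained, and 9 to 10 and 8 to 9 with separate heights. The number called by limma was 2 to 4 and 2 to 2, the median log2 difference 1.42 to 1.82 and 1.18 to 1.95, and the number differing between lines 0. The Kuramochi extremes of 5 bound and 1.18 came without DMSO replicate 1, and the 6 gained without DMSO replicate 2. The OVCAR-3 extremes of 6 bound and 5 gained came without DMSO replicates 1 and 2, in that order.

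Across genes, the deviations of libraries with the same replicate number were not correlated, at −0.05 in OVCAR-3 and 0.00 in Kuramochi. The numbers were therefore not taken to pair them. These correlations do not show a shift that all genes of a library share. The SE was smaller with a replicate block, at 0.32 for AURKA and 0.35 for CDK1 in each line, against 0.43 without it. With the replicate block the log2 differences were 1.75 for AURKA and 1.49 for CDK1 in OVCAR-3 and 1.81 and 1.72 in Kuramochi, with 2 members called in each line, medians of 1.62 and 1.77 and 0 members differing between lines. Over all genes the block moved the calls from 3678 to 3734 and from 3508 to 3644, and the genes differing between lines from 0 to 1. The summits of BUB1 and BUB1B rested on 5 to 14 fragments and those of PLK1 on 7 to 16, which limits the precision of their heights. Whether depth bears on their missing peaks was not tested.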
